A study of Mus musculus with 30 samples.

Results

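The genes described here are 10 genes of leukocyte recruitment in cultured mouse aortic smooth muscle cells: the chemokines Ccl2, Ccl7, Ccl5, Cxcl10, Cxcl1, Cxcl5, Cxcl12 and Cx3cl1, and the adhesion molecules Icam1 and Vcam1. They were taken by name, by matching the Ensembl gene identifiers of the count table to symbols. All 10 were found among 78334 identifiers, of which 51486 had a symbol.

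Chemokines are small secreted proteins that bind receptors on leukocytes and draw them towards their source, and Cx3cl1 can also stay on the cell surface as a membrane-bound ligand. Icam1 and Vcam1 are surface proteins of the immunoglobulin superfamily that leukocyte integrins grip once a rolling cell has been activated. Transcription of many of these genes rises with NF-kB, and that of Ccl5 and Cxcl10 also with interferon signalling. In the artery wall, smooth muscle cells can make both kinds of protein, which is best known from inflamed and atherosclerotic vessels.

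The study altered the long noncoding RNA CASC15 in these cells, and RNA was sequenced from 30 libraries in 9 groups over 2 sequencing runs, numbered 2 and 3 by the submitters. All cells went without serum for 48 h and were transfected, and no group was left without a transfection. GapmeRs, antisense oligonucleotides that let RNase H cut their target RNA, served for knockdown and a plasmid for overexpression, each arm with its own control GapmeR or control plasmid. The labels say neither how many animals gave the cells nor which transcripts "long" and "total" CASC15 stand for, and the growth protocol names rat cells beside mouse cells.

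Run 2 held untreated cells only. There were 2 libraries with the control GapmeR and 2 labelled total CASC15 knockdown, and 3 each for the control plasmid and for overexpression of total CASC15. Run 3 held 4 libraries in each of 5 groups. Control GapmeR cells were untreated, given 10 ng/ml angiotensin II for 24 h or given 10 to 30 ng/ml PDGF-BB for 24 h, and long CASC15 knockdown cells were untreated or given the same angiotensin II. Angiotensin II is a peptide hormone that contracts vessels, and PDGF-BB is a growth factor that drives smooth muscle cells to divide and migrate. Each library also carries a batch name between P16 and P19, with at most 1 library of a group in each batch; the 2 GapmeR groups of run 2 hold only P17 and P18.

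Library totals ran from 18007199 to 21881959 counts in run 2 and from 15771490 to 30362047 in run 3. The target was read from 2610307P16Rik, the mouse long noncoding RNA gene beside Sox4. It averaged 716 CPM (counts scaled to the size of the library) with overexpression against 6.42 with the control plasmid. It averaged 2.87 CPM in untreated long knockdown against 5.52 in its control, but 9.01 in the libraries labelled total CASC15 knockdown against 7.02 in theirs, so no fall marks that label. Of 8 smooth muscle markers, Acta2 averaged 109 to 254 CPM by group, while Tagln averaged at most 3.25 CPM, Myh11 at most 5.49 and Cnn1 at most 0.16, with Cnn1 at 0 in every overexpression and PDGF-BB library. The summed level of 6 fibroblast markers was 2640 to 4293 CPM in every library, and that of the 8 smooth muscle markers was 175 to 536 CPM. Smtn, Lmod1, Myocd and Des held the rest of the smooth muscle sum and are not given singly. Of 10 leukocyte markers, 5 had at most 3 counts in any library, Cd3e and Tyrobp among them at 0 in all 30 libraries, and Ptprc, which encodes the pan-leukocyte protein CD45, reached 2 counts at most.

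Batch P19 stood apart for some members. Cxcl5 and Cxcl12 were lowest in the P19 library in 7 of the 7 groups that hold one, and Vcam1 was highest there in 6 of 7. Where leaving out P19 changed a call, the value without it is given beside the result.

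RefSeq's promoter table (GRCm38.p6) held windows for 5 of the 10 genes: Cxcl1, Cxcl10, Cxcl12, Cx3cl1 and Icam1. Shown are the 250 bases before the start of transcription, 5′ to 3′ along the gene, for 3 chemokines that behaved differently below: Cxcl10, which was detected with plasmids and near 0 elsewhere, Cxcl1, which rose with overexpression and PDGF-BB, and Cxcl12, which did not rise in any comparison. Capitals mark matches to the NF-kB consensus, whose letters allow either purine or either pyrimidine at some places, and to an interferon element, spelled as GAAA, any 2 bases and GAAA again; both were searched on both strands.

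Cxcl10, chr5:92348890-92349139, minus strand: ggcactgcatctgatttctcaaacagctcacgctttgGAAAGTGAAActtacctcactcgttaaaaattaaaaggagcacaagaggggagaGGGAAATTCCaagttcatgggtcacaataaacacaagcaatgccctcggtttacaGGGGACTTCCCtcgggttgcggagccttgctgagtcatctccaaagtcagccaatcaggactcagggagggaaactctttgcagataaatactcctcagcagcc
Cxcl1, chr5:90890995-90891244, plus strand: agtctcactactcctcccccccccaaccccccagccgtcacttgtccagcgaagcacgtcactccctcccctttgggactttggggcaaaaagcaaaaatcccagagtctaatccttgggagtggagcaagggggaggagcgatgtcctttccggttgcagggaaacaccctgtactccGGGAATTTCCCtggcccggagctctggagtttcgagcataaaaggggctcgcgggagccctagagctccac
Cxcl12, chr6:117168285-117168534, plus strand: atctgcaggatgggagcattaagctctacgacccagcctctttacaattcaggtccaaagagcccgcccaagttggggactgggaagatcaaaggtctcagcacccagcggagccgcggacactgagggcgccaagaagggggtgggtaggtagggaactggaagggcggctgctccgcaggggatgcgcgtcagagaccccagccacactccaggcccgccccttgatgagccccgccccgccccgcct

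In Cxcl10 the first capital block is the interferon element, which begins at -213 from the start of transcription, and the other blocks are NF-kB matches that begin at -159 and at -104, the last of them holding overlapping matches. Cxcl1 holds overlapping NF-kB matches that begin at -71 on the strand of the gene and at -70 on the opposite strand, and the Cxcl12 window holds neither motif. Each window searched held the 250 bases before the start and the 50 after it. Over all 32851 promoter windows of the table, 8.46% held the NF-kB consensus and 3.44% the interferon element. Among the 5 member windows these were 2 and 1. The windows of Cx3cl1 and Icam1, both called higher with overexpression below, held neither motif as spelled here. Whether matches and changes go together was not tested. A match is a run of letters and no evidence of binding, and no match says only that these letters are not in this window.

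Of the 10 genes, 6 share a chromosome with another member. On GRCm38, Ccl2 (chr11:82035571-82037453) and Ccl7 (chr11:82045712-82047525) are neighbours on the plus strand, with Ccl5 (chr11:83525778-83530518, minus strand) further along. Cxcl5 (chr5:90759360-90761624), Cxcl1 (chr5:90891241-90893115) and Cxcl10 (chr5:92346638-92348889, minus strand) share chromosome 5. Cxcl12 is at chr6:117168535-117181367, Cx3cl1 at chr8:94772009-94782427, Icam1 at chr9:21015985-21028817 and Vcam1 at chr3:116109949-116129688 on the minus strand. These positions are those of the GENCODE annotation; the submitters' notes name both GRCm39 and mm10, which share gene identifiers but not coordinates. On the opposite strand, Ccl2 overlaps Gm17268, Cxcl10 overlaps Art3, Icam1 overlaps Gm47079 and Vcam1 overlaps Gm43109. Whether the counting used strand is not given in the sources used here, so reads of these pairs may not be told apart.

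Levels between genes were compared per kilobase of exon sequence. In untreated control cells of run 3, Cxcl12, the ligand of Cxcr4 and Ackr3, was at 290 ± 24.4 CPM per kb (SD, n = 4) and Vcam1 at 219 ± 10.4. The monocyte chemokine Ccl2 followed at 21.3 ± 3.41 CPM per kb. Cx3cl1 at 8.81 ± 1.08 and Cxcl1 at 8.67 ± 0.953 did not differ beyond their spread. Icam1 at 5.53 ± 1.07 and Ccl7 at 4.32 ± 0.567 had overlapping ranges, with Icam1 the higher in each of the 4 libraries. The neutrophil chemokine Cxcl5 was at 1.51 ± 0.761 CPM per kb. Ccl5 and Cxcl10, both of which attract T cells, had at most 3 and 4 counts in any library of run 3 and were not testable there.

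**Figure D1:**
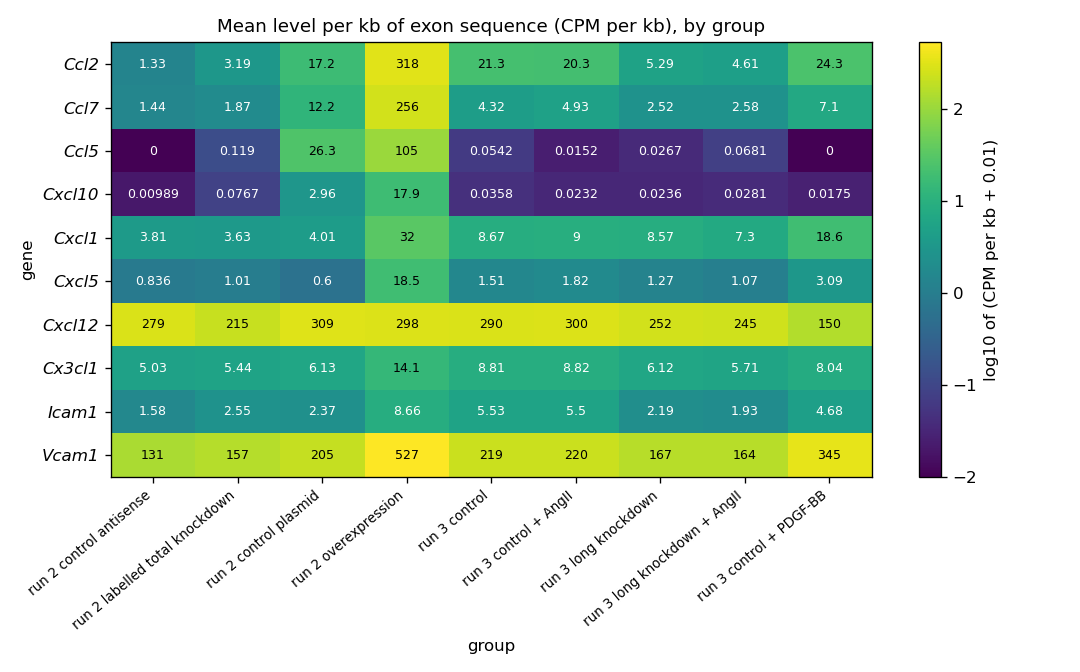
Mean level of each gene (rows) in each of the 9 groups (columns) as CPM per kb of exon sequence, printed in each cell and coloured by its log10 after adding 0.01. Cxcl12 and Vcam1 are above 100 in all 9 groups, Ccl5 and Cxcl10 exceed 1 with either plasmid only, and Ccl2 and Ccl7 reach 318 and 256 with overexpression.

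Total CASC15 overexpression raised chemokines and both adhesion molecules above the control plasmid. With edgeR's quasi-likelihood test (Benjamini-Hochberg adjustment over all genes tested in a run, 15350 in run 2 and 15103 in run 3, which is the test behind every adjusted p here), 5 of the 10 members passed an adjusted p of 0.05, all higher: Cxcl1, Cxcl5, Cx3cl1, Icam1 and Vcam1. Of all genes tested, 1.09% were called higher. With the batch as a replicate block, 9 of 10 were called higher against 9.4% of all genes, and Cxcl12 was the member left. The members' median log2 fold change was 2.30, that of all genes 0.00. The call count rests on few libraries: it was 0 when only the 2 groups compared entered the fit, 8 without the P19 libraries, and 0 to 9 when each library was left out in turn, 0 without control plasmid replicate 2 and 9 without control plasmid replicate 3.

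Vcam1, which binds the integrin alpha4 beta1 on monocytes and lymphocytes, had the highest level per kb of the members that rose. In batches P17, P18 and P19 it was at 4317, 5569 and 4131 CPM with overexpression and at 1318, 1909 and 2238 CPM with the control plasmid. The groups did not overlap, at a log2 fold change of 1.36 ± 0.23 (± SE here and below, adjusted p = 0.0193). Icam1, which binds the beta2 integrins of neutrophils and monocytes, was at 40.9, 45.3 and 27.0 CPM against 6.76, 10.9 and 13.3. Every overexpression library lay above every plasmid library, at a log2 fold change of 1.87 ± 0.27 (adjusted p = 0.00986). Cx3cl1, the membrane-anchored chemokine seen by Cx3cr1, was at 65.5, 58.2 and 42.5 CPM against 20.0, 23.7 and 28.6 (log2 fold change 1.20 ± 0.19, adjusted p = 0.0165). Each of these 3 calls was lost with only the groups compared (adjusted p = 0.0790 for Vcam1, 0.0577 for Icam1 and 0.0679 for Cx3cl1) and without control plasmid replicate 2 (0.0799, 0.0527 and 0.0842). Vcam1 and Cx3cl1 also lost it without control plasmid replicate 1 (0.0525 and 0.0708) or overexpression replicate 2 (0.0890 and 0.0804), and Cx3cl1 without overexpression replicate 1 (0.0575). For Vcam1, Icam1 and Cx3cl1 the P19 pair was the closest, with the lowest overexpression value and the highest plasmid value.

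The neutrophil chemokines Cxcl1 and Cxcl5, ligands of Cxcr2, both rose. Cxcl1 was at 19.1, 43.5 and 117 CPM with overexpression and at 5.90, 6.16 and 10.5 CPM with the control plasmid (7.99-fold, with a log2 interval from 1.63 to 4.36, adjusted p = 0.0489). The Cxcl1 call sat at the threshold: it was lost with RLE size factors (adjusted p = 0.05004), with only the groups compared (0.159), and without control plasmid replicate 1 (0.192), control plasmid replicate 2 (0.185) or overexpression replicate 2 (0.106). Without P19 its log2 fold change was 2.38 (adjusted p = 0.0160). Cxcl5 was at 41.9, 53.8 and 7.53 CPM against 1.26, 1.98 and 0.113 (log2 fold change 4.92 ± 0.87, adjusted p = 0.0293). This call too was lost under 5 alternatives: only the groups compared (adjusted p = 0.129) and without control plasmid replicate 1 (0.122) or 2 (0.0866) or overexpression replicate 1 (0.0797) or 2 (0.106), where the log2 fold change ran from 4.45 to 5.56. The P19 libraries were lowest for Cxcl5 in both groups and highest for Cxcl1 in both, while within each batch both genes were higher with overexpression.

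The monocyte chemokines Ccl2 and Ccl7, ligands of Ccr2, had large fold changes that varied with batch. Ccl2 was at 155, 331 and 601 CPM with overexpression and at 3.74, 5.78 and 49.3 CPM with the control plasmid. Its log2 fold change was 4.22 ± 0.96, with an adjusted p of 0.0739 without the block and 0.00772 with it. Ccl7 was at 103, 208 and 302 CPM against 1.62, 3.30 and 24.5 (log2 fold change 4.40 ± 0.90, adjusted p = 0.0508, and 0.00952 with the block). The groups of neither gene overlapped. The P19 plasmid library was several times above the other plasmid libraries for both, and without the P19 libraries the log2 fold changes were 5.69 for Ccl2 (adjusted p = 0.00137) and 6.01 for Ccl7 (adjusted p = 0.00114).

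Ccl5 and Cxcl10, the interferon-responsive pair, were present with both plasmids. Ccl5 was at 69.8, 115 and 117 CPM with overexpression and at 8.69, 27.0 and 40.2 CPM with the control plasmid. Its log2 fold change of 1.99 ± 0.49 did not pass without the block (adjusted p = 0.105) and did with it (0.0113). Cxcl10, a ligand of Cxcr3, was at 10.5, 26.4 and 84.3 CPM against 0.901, 3.08 and 16.04. Its groups overlapped, since the P19 plasmid library exceeded the P17 overexpression library, but within each batch it was higher with overexpression (log2 fold change 2.61 ± 1.01, adjusted p = 0.269, and 0.000917 with the block). Without the P19 libraries the log2 fold change was 3.24 (adjusted p = 0.0371), and without control plasmid replicate 3 alone it was 4.37 (0.0406).

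Cxcl12 was the exception. It was at 2805, 2669 and 1833 CPM with overexpression and at 2452, 2817 and 2315 CPM with the control plasmid. The groups overlapped, and the log2 fold change was -0.05 with an interval from -0.43 to 0.32 (adjusted p = 0.924), so a rise as large as that of Cx3cl1 lies outside it. In bulk RNA, a change in the share of cells that make a transcript and a change in RNA per cell cannot be told apart.

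**Figure D2:**
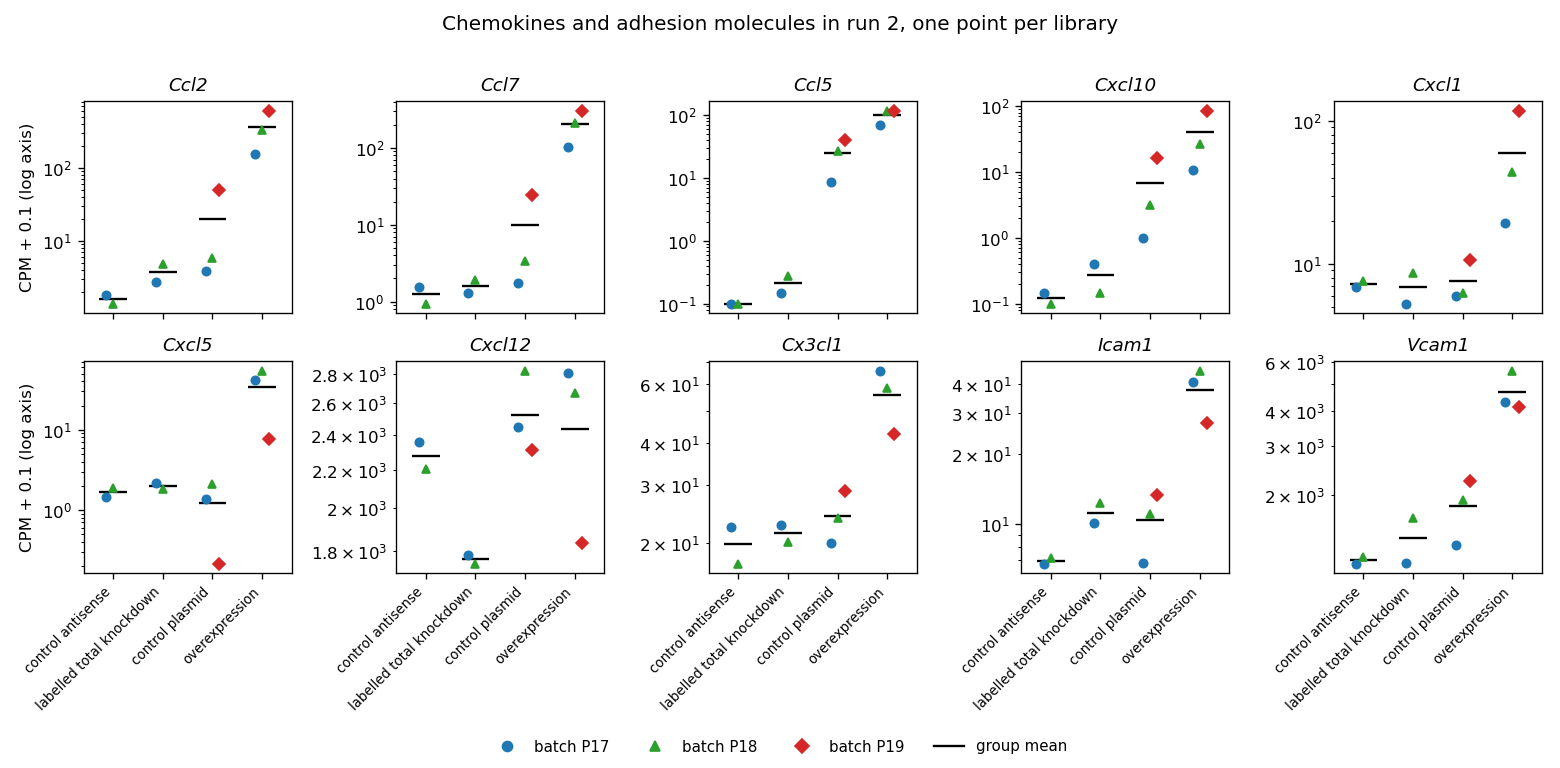
CPM plus 0.1 on a log axis for the 10 genes in the 4 groups of run 2, one point per library, coloured and shaped by batch, with a bar at each group mean. For 9 genes the overexpression libraries lie above the plasmid library of the same batch, and Cxcl12 stays between 1743 and 2817 CPM in all 4 groups.

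Some of the listed pathway genes were called in the same comparison. Among 13 NF-kB and interferon signal factors, 5 passed as higher and 0 as lower (7 and 0 with the block), where the shares of all genes called higher were 1.09% and, with the block, 9.4%. Of the 15350 genes, 85 were called lower, and 1278 with the block. Nfkbia, the inhibitor that NF-kB itself induces, rose by a log2 fold change of 1.69 ± 0.14 (adjusted p = 0.000715), and Relb, a subunit, by 1.43 ± 0.13 (0.00106). Zc3h12a, the RNase that degrades inflammatory mRNAs including that of Il6, rose from 9.43 to 85.0 CPM (log2 fold change 3.17 ± 0.15, adjusted p = 1.9e-05). Adam17, a protease that can shed Cx3cl1 and Vcam1 from the surface, rose by 0.85 ± 0.12 (0.00995). The list's median log2 fold change was 0.71 for the signal factors, against 0.00 over all genes.

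Of 27 other chemokines, 8 had enough counts to test, and 1 was called higher (4 higher and 1 lower with the block): Cxcl16, which like Cx3cl1 is made as a membrane protein, at 19.5 against 3.38 CPM (log2 fold change 2.52 ± 0.25, adjusted p = 0.00138). The only one of 22 chemokine receptors with enough counts in run 2 was Ackr3, a receptor that scavenges Cxcl12, and it rose from 7.31 to 48.9 CPM (log2 fold change 2.74 ± 0.25, adjusted p = 0.00106). Icam5, a relative of Icam1 best known from neurons, rose from 4.44 to 17.4 CPM (1.97 ± 0.20, adjusted p = 0.00149), and of 13 other adhesion molecules tested 3 passed as higher and 0 as lower (6 and 3 with the block). Tlr2, a receptor for bacterial lipoproteins, rose from 22.7 to 93.5 CPM (2.05 ± 0.19, adjusted p = 0.00106). It was the 1 sensor of 10 tested that was called (2 higher and 0 lower with the block). Among 12 inflammatory cytokines and cytokine receptors tested, 4 passed as higher and 0 as lower (8 and 1 with the block), led by the interferon receptor subunit Ifnar2 at a log2 fold change of 1.18 ± 0.11 (adjusted p = 0.00106).

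The summed level of the 10 leukocyte markers was 18.1 to 23.4 CPM with overexpression and 11.4 to 12.6 with the control plasmid. Cd14, a lipopolysaccharide co-receptor, held most of it, at 18.8 ± 2.06 against 10.7 ± 0.40 CPM (SD, n = 3), while Cd3e, Tyrobp and Adgre1 were at 0 in both groups and Ptprc averaged 0.03 and 0.07 CPM. The 5 epithelial markers summed to 66.4 to 150 CPM with overexpression and 44.6 to 64.2 with the control plasmid. The part of both lists in the results was not tested.

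Plasmid and GapmeR controls were not alike for these genes. The comparison sets the control plasmid against the control GapmeR within run 2 and shares its plasmid libraries with the overexpression comparison. It called 1 of 10 members, Ccl5, against 1.15% of all genes called higher, and 2 with the block, Ccl5 and Cxcl10, against 2.36%. Both genes passed the count filter only through the plasmid groups, where they are high. Their calls are therefore no separate support for a difference of the members as a set. Ccl5 had 0 counts in both GapmeR controls and 193 to 709 in the plasmid controls, which with a floor of 3 counts per library is at least 179-fold higher (adjusted p = 0.00642; block 0.0163). Cxcl10 had at most 1 count in the GapmeR controls and 20 to 283 in the plasmid controls, where P19 held the 283 (adjusted p = 0.284; block 0.0224). The Ccl5 call was lost when either GapmeR library was left out (adjusted p = 0.0827 and 0.0790) and when only these groups were fitted (0.0568).

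Ccl2 and Ccl7 were higher in all 3 plasmid controls than in both GapmeR controls, without passing the test, and the size of the difference rested on P19. The GapmeR controls were at 1.74 and 1.28 CPM for Ccl2 and at 1.47 and 0.840 for Ccl7, beside the plasmid values above. The log2 fold changes of 3.68 for Ccl2 (adjusted p = 0.419) and 3.05 for Ccl7 (adjusted p = 0.481) fell to 1.63 and 1.04 without P19. Cxcl1, Cxcl5, Cxcl12, Cx3cl1 and Icam1 overlapped between the controls. Vcam1 was at 1128 and 1194 CPM in the GapmeR controls, below all 3 plasmid controls (log2 fold change 0.65, adjusted p = 0.474).

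Some sensors and signal factors were also called here. Of 10 nucleic acid and microbial sensors tested, 4 were called higher and 0 lower, and of 13 NF-kB and interferon signal factors, 5 higher and 0 lower, where 1.15% of all genes were called higher. Ifih1, a cytosolic sensor of double-stranded RNA, was at 143 against 7.91 CPM (log2 fold change 4.17 ± 0.30, adjusted p = 0.000138). Irf7 was at 385 against 3.68 CPM (6.71 ± 0.47, adjusted p = 0.000138). Zbp1, a sensor of Z-form nucleic acids, had 0 counts in both GapmeR controls and was at 11.3, 41.2 and 77.2 CPM in the plasmid controls in order of size (adjusted p = 0.0127; block 0.0639). The control plasmid group differs from the control GapmeR group in the nucleic acid transfected, and the labels tell of no cells without either.

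The libraries labelled total CASC15 knockdown showed no member past the test against the control GapmeR. Of 15350 genes, 2.07% were called in either direction, and 0 members were called with edgeR without the block, 0 with it and 0 with DESeq2. Ccl5 and Cxcl10 had at most 4 and 6 counts in these libraries and could not have been called, which leaves 8 members that the comparison speaks to. At an unadjusted p of 0.05, edgeR without the block gave 0 members, edgeR with the block 1 and DESeq2 2. With 2 libraries against 2 the intervals were wide, such as -1.89 to 4.42 for the log2 fold change of Ccl2. Icam1 was at 10.0 and 12.2 CPM against 6.68 and 7.06, without overlap (log2 fold change 0.70 ± 0.32, adjusted p = 0.416). Cxcl12 was at 1781 and 1743 CPM against 2359 and 2205, also without overlap (-0.37 ± 0.21, adjusted p = 0.519).

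Among the listed pathway genes, 5 were called in these libraries, where 2.07% of all genes were: 1 of 8 other chemokines tested, 1 of 13 adhesion molecules, 1 of 4 integrin subunits, 1 of 12 cytokines and their receptors, and 1 of 13 signal factors. Ccl25, a chemokine for gut-homing T cells, was at 7.84 against 3.21 CPM (log2 fold change 1.29 ± 0.24, adjusted p = 0.0300), and Itgb7, an integrin subunit of such cells, at 7.52 against 0.215 CPM (5.10 ± 0.71, adjusted p = 0.0124). Alcam and Nfkb1 were lower, at log2 fold changes of -1.20 and -0.79, and Il33 was at 19.1 against 38.3 CPM (adjusted p = 0.0398). The summed leukocyte markers were 27.9 to 32.5 CPM here and 8.64 to 10.3 in the control GapmeR libraries. Cd68 was at 15.8 against 0.43 CPM and Csf1r at 2.89 against 0.14, while Ptprc, Cd3e and Tyrobp were at 0 in all 4 libraries. The 8 endothelial markers summed to 7.12 to 11.7 CPM here and 3.34 to 4.74 in the control GapmeR libraries. The 5 epithelial markers summed to 72.5 to 95.4 against 44.2 to 45.1 CPM, and the 6 fibroblast markers to 2640 to 2768 against 2943 to 2985 CPM. The part of these 4 lists in the values was not tested.

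Long CASC15 knockdown lowered Ccl2, Icam1, Ccl7, Cx3cl1 and Vcam1. In untreated cells 5 of the 8 members tested were called, all lower, against 12.8% of 15103 genes. Under angiotensin II the same 5 members were called lower, against 13.3%. With the block the counts were 5 and 5, where 3104 and 3155 of 15103 genes were called lower. With DESeq2 they were also 5 and 5, where 2145 and 2243 genes were. Without P19 they were 6 and 7, and untreated 6062 genes were then called in either direction, against 3783 with P19. When each library was left out they were 3 to 5 and 4 to 5. The members' median log2 fold change was -0.46 untreated and -0.70 under angiotensin II, and that of all genes 0.02 and 0.01. The 2 comparisons use different libraries throughout, from the same batches.

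Ccl2 fell most. In batches P16 to P19 it was at 20.2, 24.6, 29.4 and 22.7 CPM in untreated controls and at 4.62, 4.95, 5.76 and 8.76 CPM with knockdown. The groups were far apart, and the log2 fold change was -2.01 ± 0.22 (adjusted p = 1.87e-06). With angiotensin II the values were 21.2, 24.5, 28.6 and 18.2 against 3.95, 4.59, 4.39 and 8.07 (-2.14 ± 0.22, adjusted p = 9.8e-07). In both pairs the P19 knockdown library was the highest of its group.

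Ccl7, the neighbour of Ccl2, fell less. It was at 3.86, 3.63, 3.54 and 2.81 CPM in untreated controls and at 1.82, 2.34, 1.41 and 2.49 CPM with knockdown (log2 fold change -0.78 ± 0.24, adjusted p = 0.0209). The groups did not overlap, but in P19 they were close. With angiotensin II it was at 5.13, 4.56, 3.27 and 2.84 against 2.36, 1.4, 2.10 and 2.39 (-0.93 ± 0.24, adjusted p = 0.00661). The untreated call was lost without control replicate 1 (adjusted p = 0.0547), knockdown replicate 1 (0.0587) or knockdown replicate 3 (0.0746).

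Icam1 fell in every batch. It was at 26.4, 26.6, 26.4 and 17.1 CPM in untreated controls and at 8.41, 8.96, 11.3 and 9.50 CPM with knockdown (log2 fold change -1.34 ± 0.18, adjusted p = 1.78e-05). With angiotensin II it was at 30.1, 24.9, 22.2 and 18.8 against 7.19, 10.3, 7.79 and 8.47 (-1.51 ± 0.18, adjusted p = 4.77e-06). Neither pair of groups overlapped.

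Cx3cl1 and Vcam1 fell by smaller amounts. Cx3cl1 was at 35.9, 38.4, 35.8 and 28.5 CPM in untreated controls and at 23.4, 24.7, 22.8 and 25.3 CPM with knockdown (log2 fold change -0.52 ± 0.09, adjusted p = 0.000359), and it fell by 0.63 ± 0.10 on the log2 scale under angiotensin II (adjusted p = 6.04e-05). Vcam1 was at 2018, 1846, 1877 and 2022 CPM in untreated controls and at 1295, 1325, 1381 and 1920 CPM with knockdown. The P19 knockdown library lay inside the range of the controls, so the groups overlapped (log2 fold change -0.39 ± 0.13, adjusted p = 0.0346). Under angiotensin II Vcam1 was at 1838, 1871, 1900 and 2182 against 1187, 1310, 1359 and 1956 (-0.42 ± 0.13, adjusted p = 0.0222). Leaving out 1 of several libraries lost the Vcam1 call in either pair, with adjusted p up to 0.112 and 0.0903. It was also lost with no filter (0.105 and 0.0871) and, under angiotensin II, with only the groups compared (0.0536), while without all P19 libraries the log2 fold changes were -0.53 (adjusted p = 1.7e-08) and -0.55 (9.31e-09).

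The members that did not pass were Cxcl1, Cxcl5 and Cxcl12. Cxcl1 was at 12.1 to 19.2 CPM with knockdown and 13.7 to 17.6 in untreated controls (log2 fold change -0.02, interval -0.40 to 0.36, adjusted p = 0.956). Under angiotensin II it was lower with knockdown in 4 of 4 batches (-0.30, interval -0.68 to 0.08, adjusted p = 0.236, and 0.0711 with the block). Cxcl12 was at 1884 to 2207 CPM against 2081 to 2528 (-0.20, interval -0.52 to 0.12, adjusted p = 0.358). It was lower with knockdown in 4 of 4 batches, and without P19 it was called at -0.23 (adjusted p = 0.00153) and, under angiotensin II, at -0.38 (4.09e-06). Cxcl5 was at 1.70 to 2.94 CPM against 0.745 to 3.82 (-0.23, adjusted p = 0.780). The low control value was the P19 library, and under angiotensin II Cxcl5 was called without P19 only, at -1.02 (adjusted p = 0.000171).

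In each list of pathway genes with a call in untreated cells, more genes were called lower than higher. Of all genes, 12.8% were called lower and 1855 of 15103 were called higher. Of 11 cytokines and cytokine receptors tested, 6 were called lower and 0 higher (6 and 2 with the block). Il6, a cytokine induced by NF-kB, had 44 to 84 counts in untreated controls and 0 in all 4 untreated knockdown libraries. That is at least 16-fold lower with a floor of 3 counts per library, a bound for the untreated pair only. Among other chemokines, 3 of 6 tested were called in untreated cells, all lower, among them Ccl28 at -0.86 ± 0.19 (adjusted p = 0.00199) and Ccl9 at -1.73 ± 0.51 (0.0174). Of 13 signal factors 7 were called lower and 0 higher (7 and 1 with the block), and of 9 sensors tested 4 lower and 1 higher (5 and 1). With the block, 3104 of all genes were called lower and 3022 higher. Under angiotensin II, without the block, 6 signal factors were called lower and 1 higher, and 5 sensors lower and 1 higher. There 2012 of all genes were called lower and 2021 higher. Ddx58, the RNA sensor RIG-I, fell by 1.01 ± 0.08 on the log2 scale, and Tmem173, which encodes STING, by 1.25 ± 0.21. Dpp4, a protease that trims and inactivates Cxcl12 and Cxcl10, fell by 1.34 ± 0.25, and Adam17 by 0.43 ± 0.06. Podxl, a sialomucin, and Cd47, the signal that protects cells from phagocytosis, fell by 1.57 ± 0.16 and 0.81 ± 0.11. Of the integrin subunits, Itgb2 and Itgb1 fell by 1.08 ± 0.23 and 0.41 ± 0.10, and Itga4 rose by 0.61 ± 0.18.

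Leukocyte markers summed to 12.2 to 14.9 CPM in untreated knockdown and 10.6 to 14.8 in untreated controls. Epithelial markers summed to 36.6 to 69.9 against 97.7 to 129 CPM. With angiotensin II, leukocyte markers summed to 12.5 to 16.5 CPM with knockdown and 10.1 to 12.9 in controls, and epithelial markers to 35.4 to 64.5 and 103.5 to 127.9. Of 7 smooth muscle markers tested, 2 were called higher and 1 lower in each pair, and of 5 fibroblast markers 2 higher and 2 lower untreated and 1 higher and 2 lower with angiotensin II. The part of these lists in the results was not tested.

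**Figure D3:**
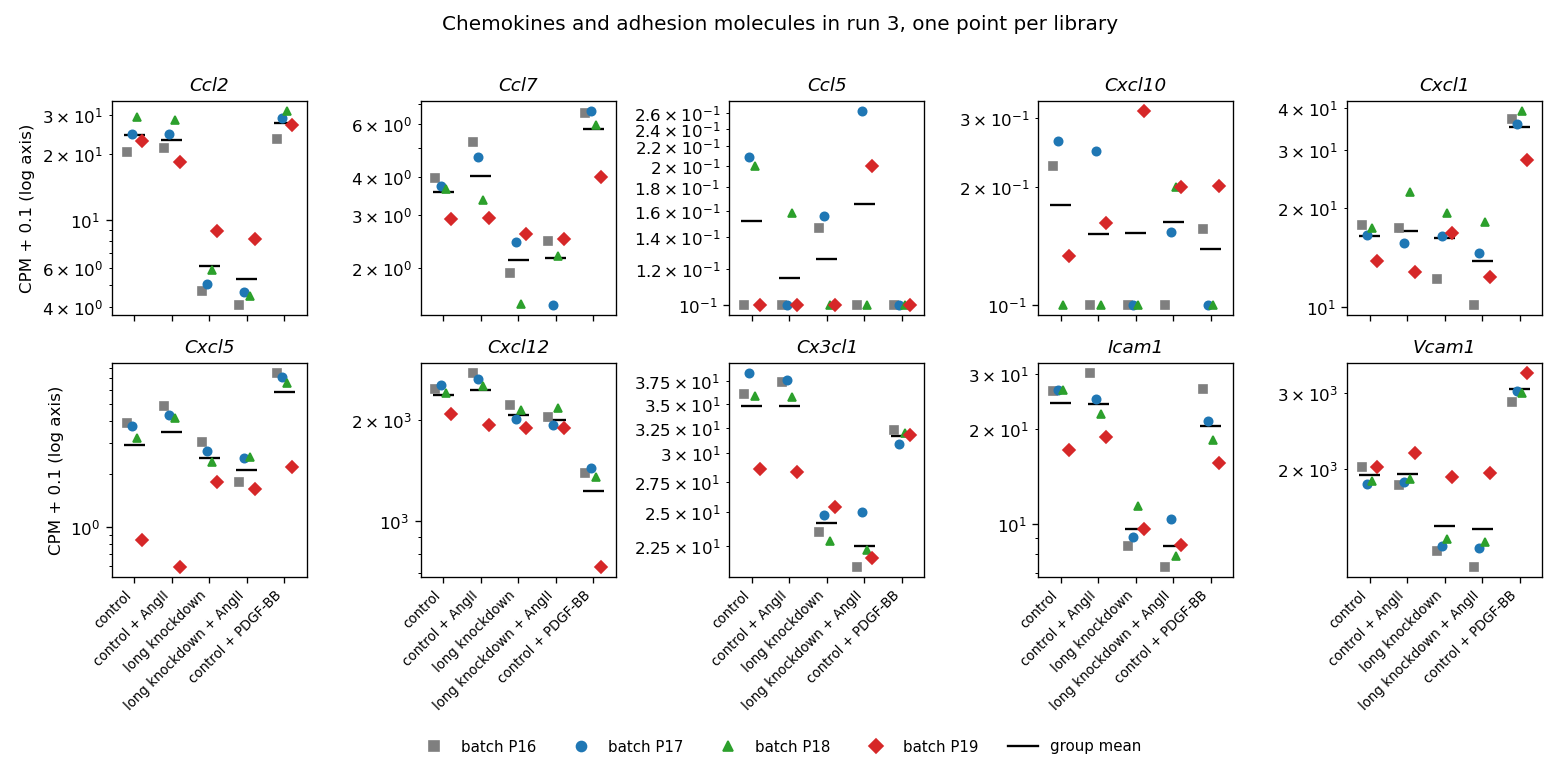
CPM plus 0.1 on a log axis for the 10 genes in the 5 groups of run 3, one point per library, coloured and shaped by batch, with a bar at each group mean. Ccl2 and Icam1 libraries with long knockdown lie below all control libraries, angiotensin II groups lie on their untreated counterparts, and Cxcl12 is lowest with PDGF-BB, at 730 to 1434 CPM.

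Angiotensin II changed none of the members past the test, in either arm. In control cells 0 of 8 were called with edgeR, against 0% of 15103 genes. In knockdown cells it was 0 of 8 against 0%, over both arms 0 of 8 against 0%, and for the interaction of knockdown and angiotensin II 0 of 8 against 0%. At an unadjusted p of 0.05 edgeR gave 0 members in each and 156, 174, 159 and 166 genes in turn, and DESeq2 called 0 members in each and 1, 0, 0 and 1 genes. The intervals limit what a change could be: averaged over both arms, the log2 fold change of Ccl2 was -0.13 (interval -0.45 to 0.19), of Vcam1 -0.01 (-0.21 to 0.18) and of Icam1 -0.09 (-0.36 to 0.17). Cxcl5, the least precise, had an interval from -0.76 to 0.80. For Ccl2 the difference between the arms was -0.13, with an interval from -0.77 to 0.51.

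PDGF-BB raised Cxcl1, Ccl7 and Vcam1 and lowered Cxcl12. The comparison uses the untreated controls that also serve the knockdown and angiotensin II comparisons. It called 3 of 8 members higher, against 23.6% of all genes, and 1 of 8 lower, against 20%. With the block 4 of 8 were called higher, against 28.3%, Cxcl5 being the one added. These shares are not far from those of all genes.

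Cxcl12 was at 2471, 2528, 2403 and 2081 CPM untreated and at 1389, 1434, 1349 and 730 CPM with PDGF-BB. Every treated library was below every untreated one, with the P19 library lowest in each group (log2 fold change -0.95 ± 0.15, adjusted p = 6.49e-05). Cxcl1 was at 17.6, 16.5, 17.3 and 13.7 CPM untreated and at 37.0, 35.7, 39.1 and 27.8 CPM treated. It about doubled in each batch (1.10 ± 0.18, adjusted p = 5.45e-05). Vcam1 was at 2864, 3027, 2997 and 3338 CPM with PDGF-BB, above all untreated libraries (0.66 ± 0.13, adjusted p = 0.000484).

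Ccl7 was at 6.45, 6.52, 5.85 and 3.92 CPM with PDGF-BB (0.72 ± 0.23, adjusted p = 0.0144), and its groups did not overlap. Cxcl5 was at 7.40, 7.04, 6.48 and 2.09 CPM against 3.82, 3.63, 3.09 and 0.745. Its groups overlapped through the P19 pair, and it was higher in 4 of 4 batches (1.04 ± 0.50, adjusted p = 0.103, and 0.00248 with the block). Without P19 it passed, at 0.99 (adjusted p = 5.88e-05). Ccl2 at 0.19, Cx3cl1 at -0.13 and Icam1 at -0.24 were not called, with intervals from -0.23 to 0.62, from -0.33 to 0.06 and from -0.60 to 0.12. Without P19, Cx3cl1 was called lower at -0.21 (adjusted p = 0.0177). Ccl2 and Ccl7 are neighbours whose libraries rose and fell together with overexpression and knockdown, and here the difference between their changes was not tested.

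With PDGF-BB the other listed genes were called in both directions, where 23.6% of all genes were called higher and 20% lower. Ccl9 rose by 1.54 ± 0.45 (adjusted p = 0.00898) and Cxcl16 by 0.74 ± 0.18, while Cxcl15 fell by 0.78 ± 0.24 on the log2 scale. Of 12 other adhesion molecules tested, 4 were called higher and 5 lower. Cd44, the hyaluronan receptor, rose by 1.32 ± 0.10 (adjusted p = 2.81e-09) and Podxl by 0.68 ± 0.15, and Alcam fell by 1.14 ± 0.16. Csf1, the growth factor of macrophages, fell by 1.10 ± 0.21, Dpp4 by 1.51 ± 0.25 and Tlr2 by 0.68 ± 0.12. Of 13 signal factors 2 were called higher and 4 lower. Epithelial markers summed to 157 to 199 CPM with PDGF-BB and 97.7 to 129 untreated, and smooth muscle markers to 196 to 219 and 241 to 276 CPM. The median log2 fold change was -0.78 over the 7 smooth muscle markers tested and -1.26 over the 5 fibroblast markers tested. The part of these lists in the results was not tested.

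**Figure D4:**
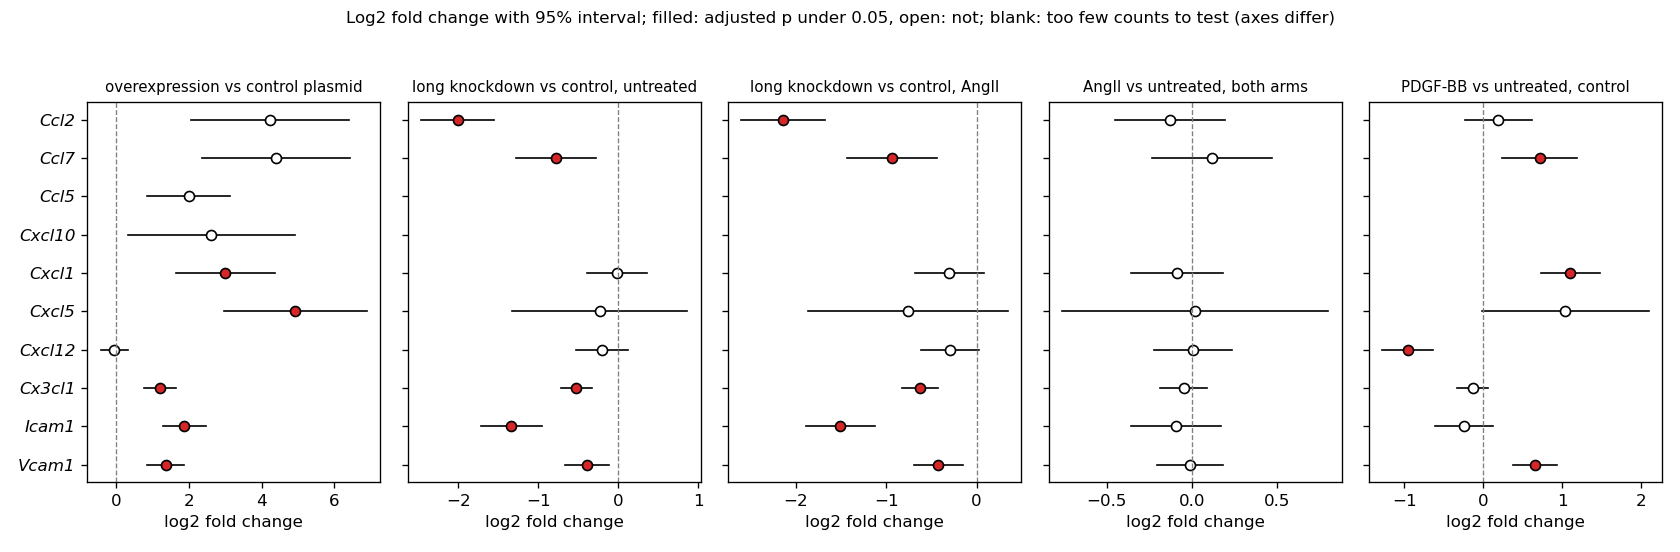
Log2 fold change (horizontal axis, with its own range in each panel) of the 10 genes in 5 comparisons, with 95% intervals as lines and filled points for an adjusted p under 0.05. Ccl5 and Cxcl10 are blank in run 3 because they had too few counts. Overexpression moves 9 genes to the right, long knockdown moves Ccl2 and Icam1 furthest to the left, and every interval for angiotensin II crosses 0.

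Receptors for these ligands were largely missing from the same libraries. Ccr2, the receptor of Ccl2 and Ccl7, and Cxcr3, the receptor of Cxcl10, had 0 counts in all 30 libraries. Cxcr4 had at most 2 counts in a library, Cx3cr1 at most 3, and Cxcr2 at most 5. Ackr3 was the receptor with the most counts, up to 1152, and of 22 receptors only Ackr3 and, in run 3, Ccr10 had enough to test. The partners of the adhesion molecules differed. Itgal, the alpha subunit of the Icam1 ligand LFA-1, had at most 2 counts, while Itga4 and Itgb1, the pair that binds Vcam1, were at 22.1 ± 2.07 and 1348 ± 128 CPM in untreated controls of run 3 (SD, n = 4).

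Across all 30 libraries, with each run centred on its own mean, the members fell into patterns that are given as descriptions, since libraries share runs, batches and groups. Ccl2 and Ccl7 had a Pearson correlation of log2 CPM of 0.96, Cx3cl1 and Icam1 of 0.93, and Ccl2 and Vcam1 of 0.91. Cxcl12 stayed between -0.27 and 0.21 with the other members over both runs, but its correlation with Vcam1 was 0.32 over the 10 libraries of run 2 and -0.64 over the 20 of run 3, and with Cxcl1 it was -0.05 and -0.57. Among 10239 candidate genes, the most like Ccl2 were Vnn1 (0.97), Tmem176a (0.97) and Tmem176b (0.97). Those most like Icam1 were Lbp (0.97), Cx3cl1 (0.93) and Kif21a (0.92), and those most like Vcam1 were Sgms1 (0.97), Dbnl (0.94) and Myc (0.94). Cxcl1 was most like Uaca (0.89), Tnip1 (0.89) and Cxcl16 (0.88), and Cxcl5 most like Vegfc (0.88), Rhoj (0.88) and Nfkbiz (0.86). Cxcl12 had Reck (0.91), Rnf44 (0.90) and Mill2 (0.90), Cx3cl1 had Icam1 (0.93), Plscr1 (0.93) and Lbp (0.93), and Ccl7 had Tmem176b (0.96), Tmem176a (0.96) and Ccl2 (0.96).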

How the data were processed

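Values are the deposited expected counts of each gene, unscaled; RSEM 1.3.1 and STAR 2.7.11b are named in the submitters' processing notes. They also name GRCm39 and mm10, without saying which one the authors used. Of 300 values of the 10 members, 20 were not whole numbers (18 of Icam1, 2 of Cx3cl1). Expected counts were rounded, filtered with filterByExpr (minimum count 10, minimum total 15), scaled by TMM and fitted per run, all groups together, with edgeR 4.0.16 (glmQLFit robust, glmQLFTest; limma 3.58.1; R 4.3.3). Tests were two-sided, with calls made below an adjusted p of 0.05. Intervals are 95%. No column was left unmatched to a sample. Symbols covered 98.71% of counts.

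Batch names are shared across groups in the labels. After removal of group means, libraries of the same batch correlated at 0.236 on average in run 2 and 0.197 in run 3, other pairs at -0.124 and -0.0605. Removal of group means itself pushes the other pairs below 0 when same-batch pairs lie above 0, so their values add nothing. Because batch names are shared, the fit with the batch as a replicate block was run beside the one without. The labels do not say that replicates came from separate cultures, so p-values measure the spread between these libraries. Among 38 pairs of libraries of one group the chi-square per degree of freedom was at least 4.22, so none was a copy.

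The 10 members and the gene and marker lists were chosen with earlier results of these data known. Named pathway genes are the called ones with a mean of at least 1 CPM over the run, at most 2 higher and 2 lower per list and comparison; Ccr2, Cxcr3, Cxcr4, Cx3cr1, Cxcr2, Itgal, Selp, Ifnb1 and Cxcl15 were named as known partners or for their level after values were seen. Alternatives were DESeq2 1.42.0, RLE size factors, no filter, a filter at mean CPM 1, a fit of the compared groups alone, the block, each library left out, and, chosen after seeing the data, no P19 libraries. Scripts were tested on simulated data. Some items are not reported here.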

Additional observations from a re-analysis of the deposited data

Results flagged for a closer look

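In 41 sets of 4 libraries (a member in a group of run 3), the highest or lowest library lay further from its neighbours than the Dixon criterion allows in 6. Chance gives about 1 in 20 for a single set. Members share libraries and are correlated, so the sets are not independent and the 2 rates cannot be compared as a test. All 6 were the P19 library. It was high for Ccl2 in long knockdown with angiotensin II, at 8.07 CPM where the others were at 3.95 to 4.59, and for Vcam1 in untreated long knockdown, at 1920 CPM where the others were at 1295 to 1381. For Cxcl10 in untreated long knockdown it was at 0.212 CPM where the others were at 0, which is 4 counts. With the others at 0, any count would have been flagged. It was low for Icam1 in untreated controls, at 17.1 CPM where the others were at 26.4 to 26.6, for Cxcl12 with PDGF-BB, at 730 CPM where the others were at 1349 to 1434, and for Cxcl5 in controls with angiotensin II, at 0.493 CPM where the others were at 4.09 to 4.75. The Ccl2, Icam1 and Cxcl12 calls held without the P19 libraries. What P19 stands for is not given in the labels beyond a batch name, and the cause was not tested.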

How the results depend on the processing

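No called result changed direction. For overexpression, 5 members were called, and 9 with the replicate block, 9 with no filter, 8 with DESeq2, 0 with only the groups compared and 8 without P19, with 0 to 9 when each library was left out. For the control plasmid against the control GapmeR, 1 was called, and 2 with the block, 5 with no filter, 3 with DESeq2 and 0 with only the groups compared, with 0 to 1 when each library was left out. For total knockdown as labelled, no filter gave 1 (Ccl2). Long knockdown gave 3 to 5 untreated and 4 to 5 with angiotensin II, and PDGF-BB 4 to 5, and without P19 they gave 6, 7 and 6.

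Counts of all genes called moved more. Total knockdown as labelled had 317, with the block 2209, no filter 1325, mean CPM of at least 1 190, DESeq2 719, only the groups compared 1079, and 4 to 188 when each library was left out. Overexpression had 253, with the block 2721, no filter 1363, DESeq2 807, only the groups compared 66, no P19 844, and 86 to 867. The plasmid comparison had 181, with the block 459, no filter 1106, DESeq2 347, only the groups compared 101, and 67 to 277. Long knockdown had 3783 untreated, with the block 6126 and without P19 6062, and 4033 with angiotensin II, with the block 6238, over ranges of 2889 to 4882 and 3042 to 4880. PDGF-BB had 5601 to 6624. Angiotensin II in controls and the interaction had 1 each with DESeq2 and with only the groups compared. The cause was not tested. With no filter, adjusted p fell as low as 2.82e-143 at the same fold changes, so those calls are not relied on.

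With 2 or 3 libraries a group in run 2, a lone library left in an arm was assumed to vary like the other groups, and members with few counts, such as Ccl5 and Cxcl10 in run 3, could not be tested.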

Other observations

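Cxcl15, a chemokine best known from the lung, was at 329 CPM in untreated controls of run 3, 445 with long knockdown and 192 with PDGF-BB. Csf1 was at 133 ± 108 CPM with the control plasmid and 278 ± 109 with overexpression (SD, n = 3), against 28.4 ± 3.50 in the control GapmeR libraries of run 2 (n = 2); it was called with overexpression only in the fit with the block (adjusted p = 0.0265 by edgeR). Selp, the P-selectin gene, was at 5.32 ± 5.13 CPM with the control plasmid and 19.2 ± 10.5 with overexpression, and it too was called with the block only (adjusted p = 0.000282 by edgeR, 0.226 without it). Il6 was at 0.39 CPM with the control plasmid and 3.10 with overexpression, with an adjusted p of 0.132 by edgeR and 0.00226 with the block. Ifnb1 averaged 0.19 CPM with the control plasmid, 0.82 with overexpression and 0 in the other 7 groups.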
